A study of Saccharomyces cerevisiae with 16 samples.

Results

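Budding yeast cells lacking *VPH1* (*vph1∆*) were compared directly with cells lacking *ATG18* (*atg18∆*), 2 deletion strains in which the vacuole is perturbed at different points. RNA from 4 *vph1∆* libraries and 4 *atg18∆* libraries was used, 8 of the 16 libraries in the series. The members were all libraries labelled with either deletion, and genes were tested where their level averaged at least 1 TPM over these 8 libraries, 6380 genes in all. TPM is a transcript abundance corrected for transcript length and scaled to the same total in every library. The other 8 libraries, 4 of *fab1∆* cells and 4 of wild-type cells, are given as levels beside some genes and enter only the alternative models named as such. In each mutant the open reading frame is replaced by the NatMX cassette. Both mutants are otherwise alike: they are prototrophic DHY211 derivatives that carry *SAL1+* and *HAP1+*, *RME1(INS-308A)* and *TAO3(1493Q)*, together with *MKT1(30G)*, *MIP1(661T)* and *CAT5(91M)*, and *fab1∆* and wild-type cells share these alleles. Cultures were grown in SDC, a synthetic medium with dextrose and amino acids, at room temperature to an OD600 of 0.05, without any further treatment. They were grown in duplicate on separate days. Replicate numbers 1 to 4 come from the labels, which do not tell what each number shares with the others (a day, a clone), so p-values measure only the spread between these libraries.

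The vacuole is the acidic storage and degradation compartment of yeast and holds polyphosphate, basic amino acids and metal ions. Vph1 is the a subunit of the membrane (V0) sector in the vacuolar form of the V-ATPase, the proton pump that acidifies this lumen, and its paralogue Stv1 takes that place in pumps of the Golgi and endosomes. Atg18 is a β-propeller protein that binds phosphoinositides on vacuolar and autophagic membranes, takes part in autophagy, and restrains synthesis of the vacuolar lipid PtdIns(3,5)P2 by Fab1.

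Each deletion matched its label. *VPH1* (YOR270C, chromosome XV, 828052 to 830574 in SacCer3) was at 0.191, 0, 0.00544 and 0.0104 TPM in *vph1∆* libraries, against 102, 96.2, 118 and 112 TPM in *atg18∆* libraries. *ATG18* (YFR021W, chromosome VI, 194812 to 196314) was at 9.23, 10.1, 9.73 and 9.83 TPM in *vph1∆* libraries, against 0.0106 TPM in the first *atg18∆* library and 0 in the other 3. The groups did not overlap for either gene, and the two-sided exact permutation test gave its smallest possible p for 4 libraries against 4, 0.0286, in each case. Of the neighbours, *FSF1* beside *VPH1* was higher in *vph1∆* by 0.34 on the log2 scale (adjusted p = 0.0177), and *ROG3* beside *ATG18* was higher by 0.36 (adjusted p = 0.0248). *FSF1* lost its call without *atg18∆* replicate 4 (adjusted p = 0.0550), and *ROG3* lost it without *atg18∆* replicate 1, 2 or 4 or *vph1∆* replicate 2, 3 or 4 (highest adjusted p = 0.0773). *PAC1* and *CSS2*, on the opposite sides of the 2 deleted genes, differed by 0.05 and 0.04 and were not called. All differences below are *vph1∆* minus *atg18∆* in the mean of log2(TPM + 1), ± the standard error, with p-values from limma adjusted by the Benjamini-Hochberg method over the 6380 genes and a threshold of 0.05. The added 1 TPM understates the change of low genes.

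TPM carries no information on how many reads each library had, so the sequencing depth is unknown and the precision below comes only from the spread over libraries. The 10 most abundant genes held 14.4 to 15.5% of the TPM in the 8 libraries, against 31.2% in wild-type replicate 3, which stood apart from the rest of the series and is not among the 8 libraries compared. The *a*-specific genes summed to 13570 to 14040 TPM in *vph1∆* libraries and 12900 to 14530 TPM in *atg18∆* libraries. The alpha-specific genes summed to 13.8 to 18.0 TPM in *vph1∆* libraries and 18.3 to 20.4 TPM in *atg18∆* libraries. The replicates of a strain were not all equally alike. In *vph1∆* the Pearson correlation across genes, which are not independent replicates, was 0.996 to 0.997 within 2 replicate pairs (1 with 2, 3 with 4) and 0.992 to 0.996 between these pairs. In *atg18∆* it was 0.997 within the pairs, against 0.992 to 0.994 between them. The 4 libraries of a strain may therefore hold fewer than 4 independent values, and when each pair was averaged to 1 value, 4 genes were called, *VPH1*, *ATG18*, *ARG1* and *SPO24*.

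With all 8 libraries, 411 genes differed between the strains, 6.44% of those tested. Of these, 308 (4.83% of those tested) were higher in *vph1∆* and 103 (1.61%) were lower. Most of the changes were small, and the deepest falls in *vph1∆*, apart from *VPH1* itself, were a group of phosphate-responsive genes. The median over all genes was 0.01. Every *vph1∆* library lay above every *atg18∆* library in 10.4% of all genes and below every one in 4.28%, so that the groups did not overlap in 14.7%. Scaling the libraries to a common median changed the balance of the calls, with 58.0% of 445 genes higher in *vph1∆* in place of 74.9%, and quantile normalization gave 59.3% of 496. Of the 411 genes, 281 stayed called after median scaling and 333 after quantile normalization. Without *atg18∆* replicate 2, 3 or 4 the count was 205, 256 or 218, and without *vph1∆* replicate 2 or 4 it was 215 or 227. A model of all 16 libraries, whose spread includes wild-type replicate 3, called 43 genes, with 4 phosphate, 2 arginine and 1 ATP synthase gene among them and none of the branched-chain, oxidative stress, histone, cell wall, complex III or cytochrome c oxidase genes described below, while the same model without that library called 769. None of the 411 genes turned its sign in any setting tried. Adding other strains or replicate terms, or averaging pairs, leaves the difference itself the same by design. The other settings reuse the libraries behind the calls, so the kept signs are no independent check. In bulk RNA, fewer cells that express a gene and less RNA per cell cannot be told apart.

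**Figure D1:**
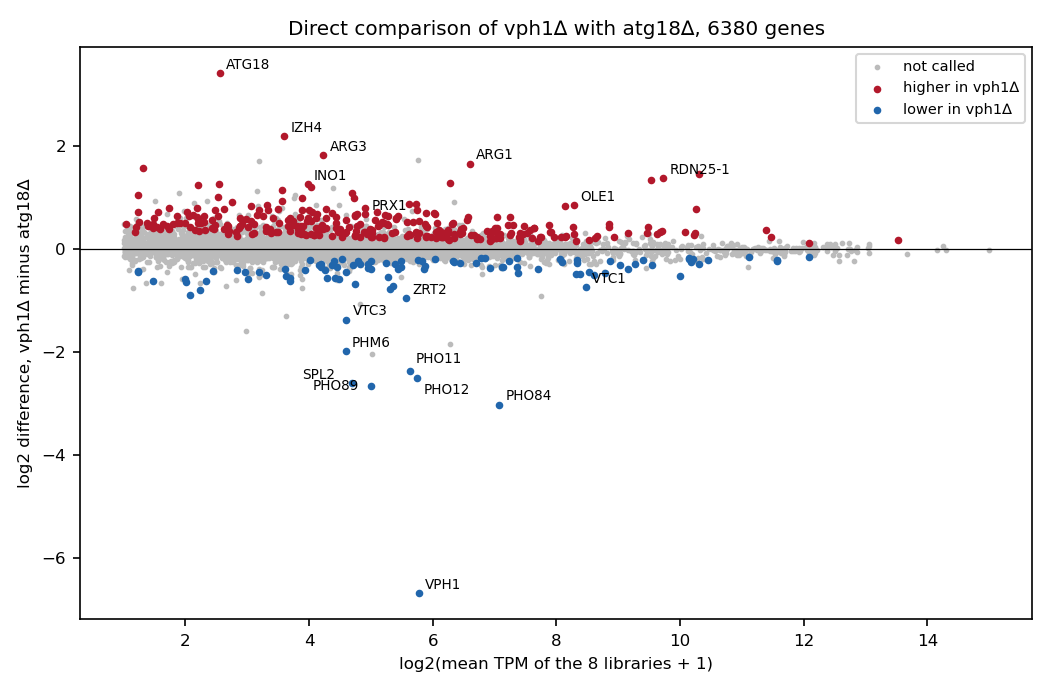
Each point is 1 of the 6380 genes, with log2 of the mean TPM of the 8 libraries plus 1 on the horizontal axis and the log2 difference, *vph1∆* minus *atg18∆*, on the vertical axis. Red points are the 308 genes called higher in *vph1∆*, blue points the 103 called lower and grey points those not called, and *PHO84* at -3.02 is the lowest gene after *VPH1*.

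Yeast senses phosphate through the cyclin-dependent kinase Pho85 with its cyclin Pho80, which keeps the activator Pho4 inactive while phosphate is plentiful. When phosphate falls, Pho4 induces high-affinity transporters, secreted acid phosphatases and the vacuolar transporter chaperone (VTC) complex, which makes polyphosphate and passes it into the vacuole. A list of 16 measured genes of this regulon was the most changed of the 61 lists examined by its median. Of its members 10 were lower in *vph1∆* and none was higher, beside 1.61% lower and 4.83% higher over all genes. The median was -1.05, beside 0.01 over all genes. In 12 of the 16 every *vph1∆* library lay below every *atg18∆* library, as in 4.28% of all genes.

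*PHO84* (YML123C, chromosome XIII, 24037 to 25800), the high-affinity phosphate and proton symporter of the plasma membrane, was at 43.1, 54.4, 15.2 and 13.9 TPM in *vph1∆* replicates 1 to 4, against 321, 305, 163 and 158 TPM in *atg18∆* replicates 1 to 4. It differed by -3.02 ± 0.45 (adjusted p = 0.00483). In both strains replicates 1 and 2 were higher than replicates 3 and 4, and the highest *vph1∆* library was still below the lowest *atg18∆* library. *PHO89*, the sodium-coupled phosphate transporter, was at 11.1, 16.8, 3.28 and 2.60 TPM in *vph1∆*, against 82.0, 78.7, 26.5 and 27.3 TPM in *atg18∆* (-2.65 ± 0.57, adjusted p = 0.0261). *SPL2*, which encodes a small inhibitor of low-affinity phosphate uptake, was at 11.0, 10.2, 2.50 and 3.13 TPM in *vph1∆*, against 61.5, 60.9, 24.7 and 26.1 TPM in *atg18∆* (-2.61 ± 0.47, adjusted p = 0.0127). In all 3 genes replicates 1 and 2 were above replicates 3 and 4 in both strains, with the strain difference present in each pair.

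The acid phosphatase genes *PHO11* and *PHO12* are near-identical copies, and reads could be split between them, so their separate values are uncertain. *PHO12* was at 22.6, 25.1, 7.84 and 7.37 TPM in *vph1∆*, against 130, 125, 53.9 and 49.8 TPM in *atg18∆*, a difference of -2.50 ± 0.46 (adjusted p = 0.0140), and *PHO11* differed by -2.38 ± 0.50 (adjusted p = 0.0248). *PHO5*, the major repressible acid phosphatase, was at 44.6, 50.1, 13.6 and 13.1 TPM in *vph1∆* and 213, 192, 43.3 and 42.7 TPM in *atg18∆*. Its difference of -1.85 ± 0.65 was not called (adjusted p = 0.139), and *vph1∆* replicates 1 and 2 lay above *atg18∆* replicates 3 and 4. *PHM6*, a phosphate-responsive gene of unknown function, fell by 1.99 (adjusted p = 0.0205).

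Of the 4 measured VTC genes 3 fell, by less than the transporters. *VTC3* was at 12.4, 15.3, 11.8 and 10.7 TPM in *vph1∆*, against 39.2, 38, 30.0 and 29.0 TPM in *atg18∆* (-1.37 ± 0.13, adjusted p = 0.000616). *VTC4*, the polymerase subunit, was at 28.3, 33.2, 31.0 and 27.6 TPM in *vph1∆*, against 56.9, 54.1, 45.4 and 44.1 TPM in *atg18∆* (-0.72 ± 0.09, adjusted p = 0.00286). *VTC1*, the small membrane subunit, was at 292, 303, 227 and 238 TPM in *vph1∆*, against 558, 515, 354 and 361 TPM in *atg18∆* (-0.73 ± 0.16, adjusted p = 0.0279). *VTC2* differed by -0.31 and was not called (adjusted p = 0.0640). *PHM8*, a phosphatase of nucleotide breakdown, was the weakest of the called members at -0.38 (adjusted p = 0.0258). Among members that were not called, *PHO8*, the vacuolar alkaline phosphatase, differed by -0.26 and *PHO81*, the inhibitor of the Pho80-Pho85 kinase, by -0.32.

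The signalling genes themselves differed little. Of 12 genes for phosphate signalling and low-affinity transport none was called, with *PHO4* at -0.12, *PHO85* at 0.00, *PHO80* at -0.03 and the low-affinity transporters *PHO87* at 0.16 and *PHO90* at -0.13. For reference, *PHO84* was at 19.3, 19.8, 9.28 and 9.20 TPM in *fab1∆* and 441, 428, 55.4 and 161 TPM in wild type, so that every *vph1∆* and *fab1∆* library lay below every *atg18∆* and wild-type library. *VTC3* followed the same order apart from wild-type replicate 3, at 9.24, 9.04, 9.11 and 8.54 TPM in *fab1∆* and 45.8, 50.8, 13.2 and 28 TPM in wild type. With 1 library left out, 5 to 10 members stayed called: 6 and 5 without *atg18∆* replicate 1 or 2, 7 and 5 without *vph1∆* replicate 3 or 4, and 9 or 10 otherwise. *PHO84*, *SPL2*, *PHO12*, *VTC3* and *VTC4* were called in all 8 of these fits.

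**Figure D2:**
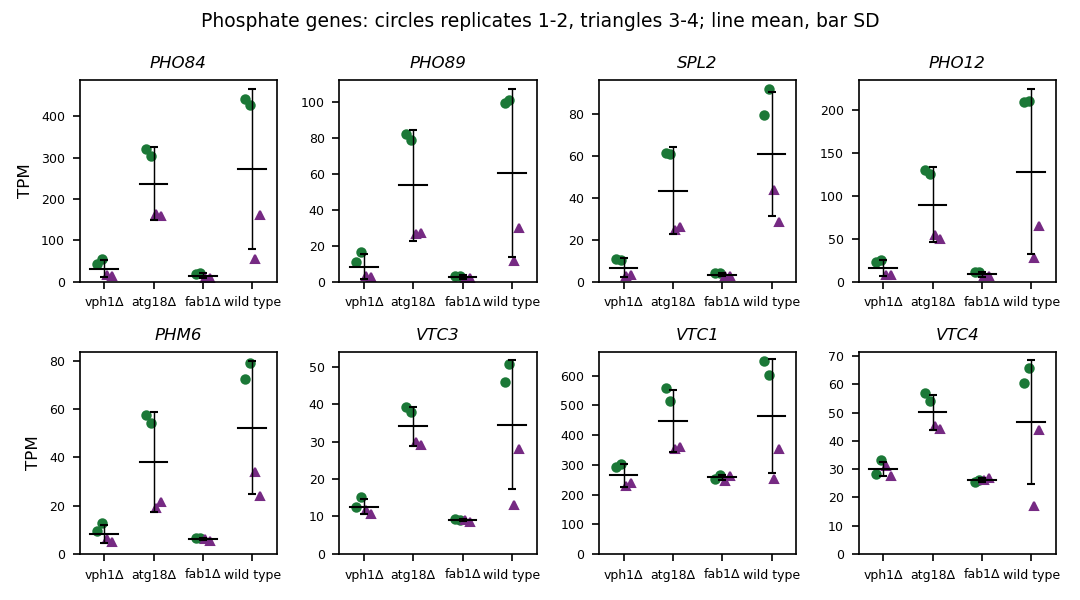
TPM of 8 phosphate genes in each library of *vph1∆*, *atg18∆*, *fab1∆* and wild type, with circles for replicates 1 and 2, triangles for replicates 3 and 4, a horizontal line at the mean and a bar of 1 SD either way (n = 4). In each gene the 4 *vph1∆* values sit below the 4 *atg18∆* values, and replicates 1 and 2 of *atg18∆* are above its replicates 3 and 4.

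The core of the Pho4 site is CACGTG, a palindrome, so that 1 search covers both strands. It was sought from 250 bases before to 50 bases after the start of each gene in RefSeq R64, which is SacCer3. It was found in 3 of the 10 called members and in 4 of 17 measured members (1 of them, *GIT1*, below the level tested), against 174 of 5972 promoters (2.91%). These windows show how the sites lie in the called genes, with the core in capitals and the strand of the gene read 5′ to 3′. They come from *SPL2* on chromosome VIII, minus strand (375230 to 375259, 375173 to 375202 and 375114 to 375143), *VTC1* on chromosome V, plus strand (302637 to 302666), and *VTC4* on chromosome X, minus strand (413507 to 413536).
SPL2 first site: aaatgatgtacgCACGTGggcgaaagttca
SPL2 second site: tctctcttttccCACGTGctccgctctctt
SPL2 last site: agtcactgcagcCACGTGcctagatctatt
VTC1: aatagatattagCACGTGtctcggagagaa
VTC4: attattcatccgCACGTGgctgcacacgtg
*VTC4* has a further copy at the end of its window. *PHO84* and *PHO89* have no match to these letters within the 300 bases searched, which says nothing of sites further away.

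Arginine is made from glutamate through ornithine and citrulline, and much of the cell's free arginine is held in the vacuole. *ARG1* and *ARG3* stood out among the genes that were higher in *vph1∆*. *ARG1* (YOL058W, chromosome XV, 219211 to 220473), which encodes argininosuccinate synthetase, was at 134, 137, 159 and 155 TPM in *vph1∆*, against 45.4, 41.6, 47.5 and 47.8 TPM in *atg18∆*. Its difference of 1.66 ± 0.07 had the smallest adjusted p of any gene other than the deleted ones (1.74e-06). *ARG3* (YJL088W, chromosome X, 268799 to 269815), for ornithine carbamoyltransferase, was at 20.5, 25.5, 35.5 and 31.3 TPM in *vph1∆*, against 5.48, 5.40, 9.06 and 9.40 TPM in *atg18∆* (1.82 ± 0.21, adjusted p = 0.00164). In both genes the *vph1∆* values were above those of every other library in the series. *ARG1* was at 55.4, 56.2, 47.6 and 48.8 TPM in *fab1∆* and 27.8, 27.0, 12.5 and 30.8 TPM in wild type. *ARG3* was at 3.63, 3.69, 4.76 and 3.52 TPM in *fab1∆* and 4.13, 4.06, 3.00 and 6.06 TPM in wild type.

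The rest of the pathway moved unevenly. *ARG5,6*, which encodes a precursor of 2 early enzymes, was at 17.0, 22.1, 29.4 and 25.3 TPM in *vph1∆*, against 11.0, 10.4, 16.3 and 15.5 TPM in *atg18∆* (0.77 ± 0.18, adjusted p = 0.0397). *CPA1*, the small subunit of carbamoyl phosphate synthetase, was higher by 0.39 ± 0.10 (adjusted p = 0.0457). *ARG4*, argininosuccinate lyase, which acts directly after Arg1, was at 85.4, 93.7, 120 and 109 TPM in *vph1∆* and 88.7, 84.6, 99.8 and 94.4 TPM in *atg18∆*, and was not called (0.14 ± 0.10, adjusted p = 0.542). All 10 members of the list were positive, with 4 called higher, beside 4.83% over all genes. The median was 0.33, beside 0.01 over all genes. With 1 library left out the count was 2 without *atg18∆* replicate 1, 2 or 4 or *vph1∆* replicate 2, 3 or 4, and *ARG1* and *ARG3* were called each time.

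Arginine and proline breakdown differed in both directions. *CAR1*, arginase, was at 58.8, 56.8, 42.3 and 41.7 TPM in *vph1∆*, against 38, 36.4, 28.2 and 28 TPM in *atg18∆* (0.59 ± 0.14, adjusted p = 0.0428), a call lost without *atg18∆* replicate 2, 3 or 4 or *vph1∆* replicate 1 or 2 (highest adjusted p = 0.121). *PUT4*, the high-affinity proline permease, was at 2.83, 2.68, 1.62 and 2.72 TPM in *vph1∆*, against 5.19, 5.63, 4.85 and 4.23 TPM in *atg18∆* (-0.80 ± 0.14, adjusted p = 0.00962). No other member of the 9 in this list was called, beside 4.83% higher and 1.61% lower over all genes.

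Of 12 genes for branched-chain amino acids 5 were higher and none was lower (median 0.16), beside 4.83% higher and 1.61% lower over all genes. *LEU2*, which encodes an enzyme of leucine synthesis, was at 48.2, 49.7, 42.6 and 40.5 TPM in *vph1∆*, against 29.7, 29.2, 27.0 and 26.4 TPM in *atg18∆* (0.67 ± 0.08, adjusted p = 0.00162). *BAT2*, the cytosolic branched-chain aminotransferase, was at 35.8, 34.8, 30.5 and 29.7 TPM in *vph1∆*, against 22.0, 21.6, 18.3 and 17.8 TPM in *atg18∆* (0.69 ± 0.09, adjusted p = 0.00298). The mitochondrial aminotransferase *BAT1* (0.34), *ILV5* (0.28) and *LEU4* (0.31) were also called, and all but *LEU4* kept the call whichever library was left out. *LEU4* was lost without *atg18∆* replicate 2 or 4 or *vph1∆* replicate 2, 3 or 4 (highest adjusted p = 0.0759).

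In lysine synthesis 2 of 9 genes were higher (median 0.18), beside 4.83% of all genes called higher. *LYS1*, which carries out the last step of the pathway, was at 32.7, 38.1, 39.9 and 37.8 TPM in *vph1∆*, against 23.5, 23.5, 18.1 and 19.1 TPM in *atg18∆* (0.80 ± 0.10, adjusted p = 0.00216), and *LYS9* differed by 0.53 (adjusted p = 0.0393). In histidine synthesis 2 of 7 genes were higher (median 0.07), *HIS5* by 0.35 (adjusted p = 0.0140) and *HIS3* by 0.20 (adjusted p = 0.0428). Unlike *LYS1* and *HIS5*, *LYS9* and *HIS3* each stayed called in only 2 of the 8 fits with a library left out (highest adjusted p = 0.107 and 0.122). *ASN1*, asparagine synthetase, rose by 0.40 (adjusted p = 0.00571) and *GDH1*, the NADP-dependent glutamate dehydrogenase, by 0.41 (adjusted p = 0.0140), the 2 called of 10 genes for glutamate, glutamine and asparagine. Of 28 genes for sulfur assimilation and methionine 4 were higher (median 0.03), led by *MET17*, which incorporates sulfide into homocysteine, at 103, 115, 118 and 117 TPM in *vph1∆*, against 76.8, 68.1, 77.3 and 72.6 TPM in *atg18∆* (0.61 ± 0.06, adjusted p = 0.000776). The other 3, *MET16* (0.39), *MET28* (0.63) and *STR3* (0.79), lay at low levels of under 12 TPM in every library. Without *atg18∆* replicate 2 or *vph1∆* replicate 4, 2 of the 4 stayed called. None of 15 aromatic amino acid genes, 16 purine genes or 15 genes of nitrogen catabolite repression was called.

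Gcn4 activates amino acid synthesis genes and is controlled largely through translation and degradation. *GCN4* mRNA was at 444, 635, 704 and 597 TPM in *vph1∆* and 467, 531, 731 and 724 TPM in *atg18∆*, and was not called (-0.04 ± 0.17, adjusted p = 0.965). *PCL5*, a Gcn4 target whose product is the cyclin that promotes Gcn4 degradation, was at 73.1, 84.1, 82.8 and 77.6 TPM in *vph1∆*, against 45.1, 46.9, 50.5 and 54.1 TPM in *atg18∆* (0.68 ± 0.07, adjusted p = 0.000906). The groups overlapped in *GCN4* and not in *PCL5*.

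The Gcn4 core TGACTC, sought on both strands in the same windows, was found in 7 of 13 called and 23 of 38 measured genes of arginine, lysine, branched-chain amino acid and histidine synthesis, against 479 of 5972 promoters (8.02%). It was thus present in called and uncalled members alike. The windows below set called genes beside *ARG4*, which was not called, with the core or its reverse complement GAGTCA in capitals. They come from *ARG5,6* on chromosome V, plus strand (295175 to 295204 and 295221 to 295250), *LYS1* on chromosome IX, minus strand (420853 to 420882), *HIS5* on chromosome IX, plus strand (142714 to 142743), *LEU4* on chromosome XIV, minus strand (426838 to 426867), and *ARG4* on chromosome VIII, minus strand (141564 to 141593).
ARG5,6 first site: ttcttatccgaaTGACTCagtctacatcaa
ARG5,6 second site: ggtggtaattgaTGACTCttctattttttt
LYS1: ttcagcgacaaaGAGTCAtaaagtcatcct
HIS5: tcttggatctgtTGACTCacttcaattgat
LEU4: cttacgtgtaagTGACTCagttctttcaaa
ARG4: ttagtagatgaaTGACTCactttttggata
*ARG1* and *ARG3*, the most changed of these genes, have no match to the 6 letters in the window.

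**Figure D3:**
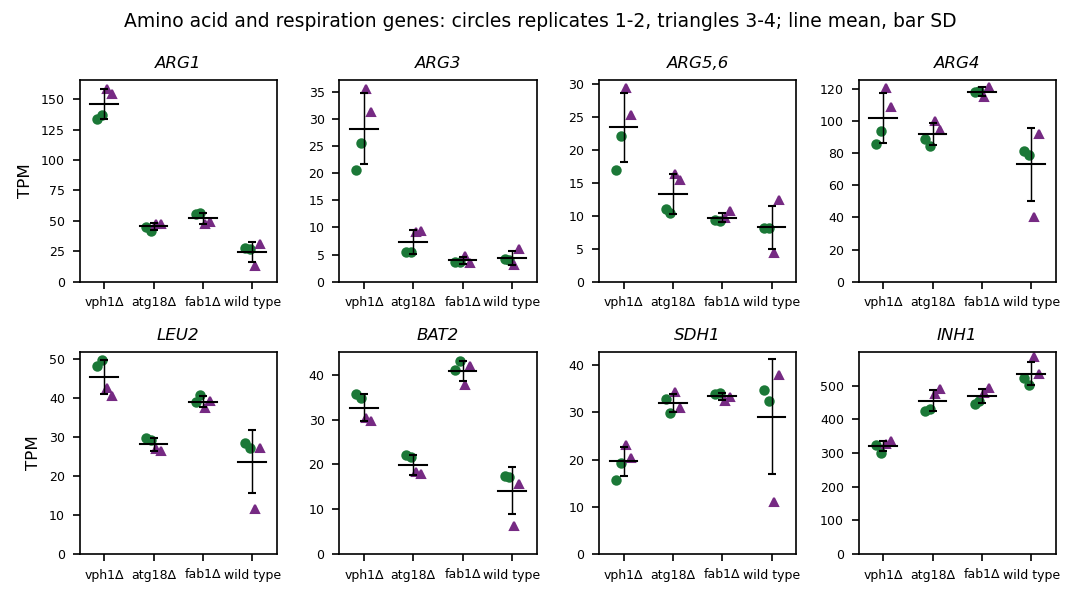
TPM of 6 amino acid genes and the respiratory genes *SDH1* and *INH1* in each library of *vph1∆*, *atg18∆*, *fab1∆* and wild type, with circles for replicates 1 and 2, triangles for replicates 3 and 4, the mean as a line and 1 SD as a bar (n = 4). *ARG1* lies at 134 to 159 TPM in *vph1∆* and at 41.6 to 47.8 TPM in *atg18∆*, while the values of *ARG4* overlap.

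The highest rise in *vph1∆* among ranked genes was in *IZH4* (YOL101C), a membrane protein gene of a family linked to zinc and sterol metabolism. It was at 20.7, 25.0, 15.3 and 14.5 TPM in *vph1∆*, against 2.30, 2.78, 4.54 and 3.84 TPM in *atg18∆* (2.19 ± 0.20, adjusted p = 0.000616). It was at 4.79 TPM or below in *fab1∆* and at 3.00 TPM or below in wild type, so that the high level was seen in *vph1∆* libraries alone among the 16. Its relatives *IZH1* (0.50 ± 0.10, adjusted p = 0.0194) and *IZH2* (0.43 ± 0.08, adjusted p = 0.0162) were higher as well. *ZRT2*, the low-affinity zinc transporter, went the other way, at 27.7, 29.9, 33.7 and 33.5 TPM in *vph1∆*, against 72.7, 69.8, 53.0 and 52.3 TPM in *atg18∆* (-0.96 ± 0.12, adjusted p = 0.00216). Thus 3 of the 13 genes of the zinc list were higher and 1 lower, beside 4.83% higher and 1.61% lower over all genes. The list median was 0.01, and *IZH4*, *IZH2* and *ZRT2* were called whichever library was left out. *IZH1* was lost without *atg18∆* replicate 2 (adjusted p = 0.0525).

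Lipid genes included further large differences. *OLE1*, the only fatty acid desaturase of yeast, was at 380, 537, 369 and 325 TPM in *vph1∆*, against 194, 206, 240 and 242 TPM in *atg18∆* (0.85 ± 0.14, adjusted p = 0.00927). *MGA2*, which encodes the membrane-bound activator of *OLE1*, was at 11.7, 16.2, 13.8 and 11.2 TPM in *vph1∆*, against 5.70, 6.47, 8.89 and 8.21 TPM in *atg18∆* (0.78 ± 0.15, adjusted p = 0.0159). The activator and its target were thus both higher, although the *MGA2* call was lost without *atg18∆* replicate 2 (adjusted p = 0.0506). *INO1*, which makes inositol phosphate for phosphatidylinositol, was at 20.5, 22.0, 21.5 and 19.7 TPM in *vph1∆*, against 11.6, 10.9, 5.93 and 5.72 TPM in *atg18∆* (1.26 ± 0.20, adjusted p = 0.00746), and at 38.1 to 44.7 TPM in *fab1∆*. Its repressor gene *OPI1* differed by -0.20 ± 0.05 (adjusted p = 0.0363), a call lost whichever library was left out (highest adjusted p = 0.107). The other 12 of 14 genes for inositol and phospholipid synthesis were not called. Of 28 ergosterol genes 3 were higher, *ERG2* (0.32), *ERG3* (0.42) and *ERG28* (0.37), beside 4.83% of all genes. The median of this list was 0.06. *ERG28* was lost without *atg18∆* replicate 3 or 4 or *vph1∆* replicate 1, 2 or 4 (highest adjusted p = 0.0879), and the list had 2 to 5 members called with 1 library left out, 5 of them without *vph1∆* replicate 1.

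Single genes of thiol and peroxide defence were higher in *vph1∆*. Of 20 oxidative stress genes 7 were higher and none lower, with a median of 0.12, beside 4.83% higher over all genes. *PRX1*, the mitochondrial peroxiredoxin, was at 36.9, 37.8, 35.6 and 33.6 TPM in *vph1∆*, against 24.0, 21.3, 22.5 and 20.8 TPM in *atg18∆* (0.68 ± 0.06, adjusted p = 0.000616). *TRX2*, the cytosolic thioredoxin, was at 930, 801, 767 and 788 TPM in *vph1∆*, against 664, 666, 554 and 560 TPM in *atg18∆* (0.43 ± 0.08, adjusted p = 0.0162). The peroxiredoxins *AHP1* (0.37) and *TSA2* (0.35), the glutathione peroxidase *GPX2* (0.30), the thioredoxin reductase *TRR1* (0.16) and the manganese superoxide dismutase *SOD2* (0.15) made up the rest. The count was 3 to 5 with 1 library left out, at its lowest without *atg18∆* replicate 2, 3 or 4 or *vph1∆* replicate 2 or 4, and 2 after median scaling.

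Oxidoreductase genes outside that list were among the 12 highest differences. *HBN1*, a nitroreductase-like gene, was at 17.8, 17.0, 12.7 and 13.7 TPM in *vph1∆*, against 7.25, 6.46, 5.87 and 5.90 TPM in *atg18∆* (1.14 ± 0.11, adjusted p = 0.000906). *YML131W*, an uncharacterised oxidoreductase-like gene, was at 34, 40.7, 31.4 and 30.1 TPM in *vph1∆*, against 17.9, 16.2, 14 and 13.8 TPM in *atg18∆* (1.09 ± 0.11, adjusted p = 0.000906). *YGL039W*, another reductase-like gene, was higher by 1.00 and *YDR274C*, of unknown function, by 1.19. Chosen after their values were seen, *OYE3*, an NADPH dehydrogenase of the old yellow enzyme family (1.25, adjusted p = 0.00164), *FRM2*, the paralogue of *HBN1* (1.27, adjusted p = 0.00456), *GRE2*, a methylglyoxal reductase (0.71, adjusted p = 0.000506), *GTT2*, a glutathione transferase (0.75, adjusted p = 0.00286), and *SSU1*, the sulfite exporter (0.75, adjusted p = 0.00164), were higher too.

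Some nuclear genes of the respiratory chain were lower in *vph1∆*, and none was called higher. The lower ones were 1 of 6 for complex II and NADH dehydrogenases, 2 of 11 for complex III and cytochrome c and 3 of 10 for complex IV. The shares over all genes were 1.61% lower and 4.83% higher. In complex II *SDH1*, its flavoprotein subunit, was at 15.8, 19.3, 23.1 and 20.3 TPM in *vph1∆*, against 32.8, 29.8, 34.3 and 31.0 TPM in *atg18∆* (-0.69 ± 0.10, adjusted p = 0.00511). In complex IV, cytochrome c oxidase, all 10 nuclear genes were negative, with a median of -0.25 and 3 called. *COX4* was at 249, 269, 293 and 291 TPM in *vph1∆*, against 343, 368, 419 and 418 TPM in *atg18∆* (-0.49 ± 0.08, adjusted p = 0.00704). *COX5A*, the aerobic isoform of subunit Va, was at 244, 260, 291 and 271 TPM in *vph1∆*, against 356, 345, 404 and 385 TPM in *atg18∆* (-0.48 ± 0.07, adjusted p = 0.00347), and *COX8* differed by -0.31 (adjusted p = 0.0247). The *COX8* call was lost without *atg18∆* replicate 3 or 4 or *vph1∆* replicate 1, 2 or 4 (highest adjusted p = 0.0746). Of 11 genes for complex III and cytochrome c, *QCR6* (-0.46) and *QCR2* (-0.35) were lower, and the median was -0.23. The 1 positive member of these 11 was at 0.45 and was not called, although every *vph1∆* library lay above every *atg18∆* library. With 1 library left out, at most 1 member was called higher.

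Of 16 genes for ATP synthase and its inhibitors 7 were lower and 1 was higher, beside 1.61% lower and 4.83% higher over all genes. In this list 15 were negative, and the median was -0.22. The 2 inhibitor genes moved in opposite directions. *INH1*, which inhibits ATP hydrolysis by the enzyme, was at 322, 300, 326 and 335 TPM in *vph1∆*, against 426, 430, 476 and 489 TPM in *atg18∆* (-0.50 ± 0.06, adjusted p = 0.00155). *STF1*, its paralogue, was at 75.7, 80.3, 72.0 and 76.2 TPM in *vph1∆*, against 61.0, 60.6, 55.6 and 58.0 TPM in *atg18∆* (0.37 ± 0.05, adjusted p = 0.00389). The other lower members were *ATP2* (-0.38), *ATP16* (-0.28), *ATP5* (-0.26), *ATP19* (-0.24), *ATP3* (-0.24) and *ATP7* (-0.20). The number of lower members with 1 library left out was 2 without *atg18∆* replicate 3 or 4 or *vph1∆* replicate 4, 4 without *atg18∆* replicate 2 or *vph1∆* replicate 3, 3 without *vph1∆* replicate 2, and 5 or 7 otherwise. *HAP4*, the regulatory subunit of the activator of respiratory genes, differed by 0.02, and neither of the 2 measured mitochondrially encoded genes was called.

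In carbon metabolism single genes were called, in both directions, beside 4.83% higher and 1.61% lower over all genes. *HXT7*, a high-affinity glucose transporter whose reads can be shared with its near copy *HXT6*, was at 23.9, 27.2, 32.3 and 29.1 TPM in *vph1∆*, against 58.4, 51.3, 45.7 and 41.9 TPM in *atg18∆* (-0.79 ± 0.11, adjusted p = 0.00465). *ALD4*, the main mitochondrial aldehyde dehydrogenase, was at 14, 14.9, 15.6 and 14.9 TPM in *vph1∆*, against 24.1, 21.6, 22.0 and 21.9 TPM in *atg18∆* (-0.56 ± 0.06, adjusted p = 0.00131). *ALD5*, a minor mitochondrial aldehyde dehydrogenase, rose by 0.50 (adjusted p = 0.00402), opposite in direction to *ALD4*. In glycolysis and fermentation *CDC19*, the main pyruvate kinase, fell by 0.24 (adjusted p = 0.0478) and *ADH5* rose by 0.66 (adjusted p = 0.00286), of 20 genes. In glycogen metabolism *GPH1* (-0.43) and *GLC3* (-0.41) were lower and *SGA1* (0.47) higher, of 14, and no gene of trehalose metabolism was called. With wild-type replicate 3 left out, *GPH1* differed from wild type by 0.08 in *vph1∆* and 0.51 in *atg18∆*. *GLC3* differed from it by -0.05 and 0.35, so both genes lay nearer wild type in *vph1∆* than in *atg18∆*. The calls of *CDC19*, *GPH1* and *GLC3* were weak, with adjusted p reaching 0.108, 0.119 and 0.124 when a library was left out. *CIT2*, the peroxisomal citrate synthase gene used as a marker of mitochondrial retrograde signalling, was higher by 0.37 (adjusted p = 0.00962). In its list, for the TCA cycle and retrograde response, 2 of 20 genes were higher and 0 lower, with a median of -0.04.

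Of 10 histone genes 6 were lower in *vph1∆* and none was higher, beside 1.61% lower and 4.83% higher over all genes. All 10 were negative, with a median of -0.20. *HHT1*, 1 of the histone H3 genes, was at 1199, 1081, 1143 and 1101 TPM in *vph1∆*, against 1370, 1393, 1367 and 1417 TPM in *atg18∆* (-0.29 ± 0.04, adjusted p = 0.00286). *HTB1* (-0.19), *HHF1* (-0.21), *HTA2* (-0.25), *HTA1* (-0.20) and the linker histone gene *HHO1* (-0.24) were the others, and the paired core histone genes are close copies whose reads can be shared. The count was 3 without *atg18∆* replicate 1, 2 or 4 or *vph1∆* replicate 2 or 4, 4 without *vph1∆* replicate 3, and 2 after median scaling, with *HHT1*, *HTB1* and *HHF1* called whichever library was left out.

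Of 24 cell wall genes 5 were higher and none was lower, beside 4.83% higher over all genes. In this list 17 were positive and the median was 0.17. *PRM5*, a reporter of the cell wall integrity kinase Slt2, was at 27.2, 30.0, 33.7 and 30.8 TPM in *vph1∆*, against 22.5, 21.7, 23.0 and 21.3 TPM in *atg18∆* (0.44 ± 0.07, adjusted p = 0.00664). *TIP1*, a cell wall mannoprotein, was at 364, 418, 312 and 321 TPM in *vph1∆*, against 259, 260, 262 and 258 TPM in *atg18∆* (0.43 ± 0.08, adjusted p = 0.0157). *SLT2* (0.23), *HSP150* (0.30) and *CCW12* (0.18) passed the threshold more narrowly, and 2 to 5 members stayed called with 1 library left out. The count was 2 without *atg18∆* replicate 1, 2 or 4 or *vph1∆* replicate 2 or 4. *SSA2*, a cytosolic Hsp70, fell by 0.53 (adjusted p = 0.0367), the 1 called of 18 chaperone genes. *KAR2*, the Hsp70 of the endoplasmic reticulum, fell by 0.35 (adjusted p = 0.0222), the 1 called of 14 genes for folding there. The share lower over all genes was 1.61%. Neither call held without *atg18∆* replicate 1, 2 or 3 or *vph1∆* replicate 2 or 4 (highest adjusted p = 0.108 and 0.0704), nor did that of *SSA2* without *atg18∆* replicate 4. The chaperone list had a median of -0.29 in replicates 1 and 2 and 0.01 in replicates 3 and 4. In 3 of its genes the strain difference departed between these pairs by limma's test of the interaction.

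**Figure D4:**
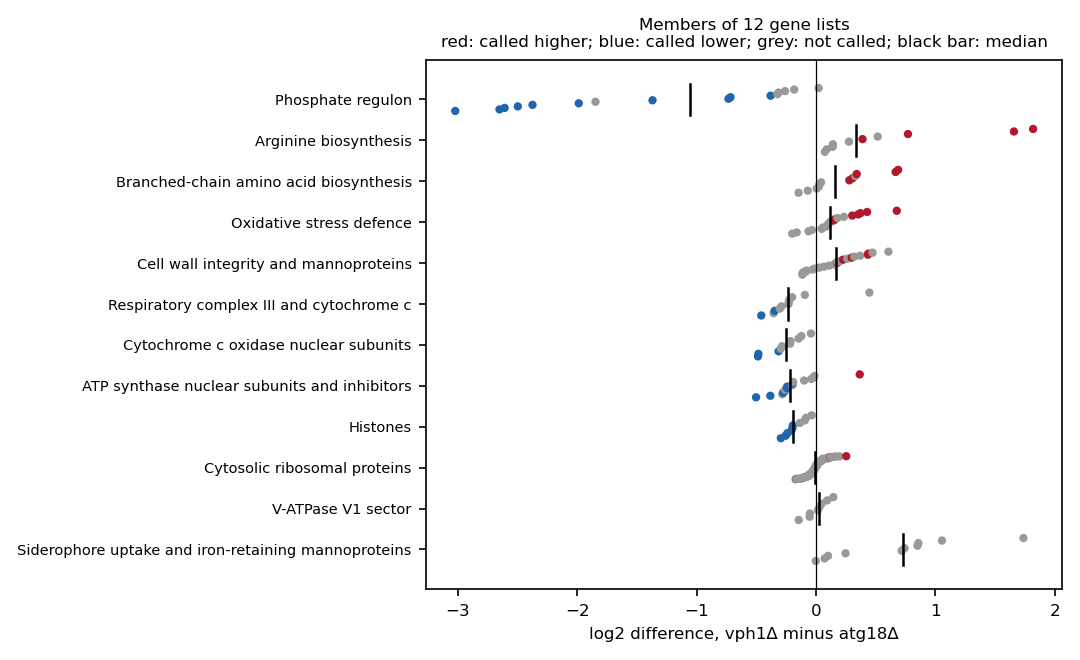
Log2 difference, *vph1∆* minus *atg18∆*, of each measured member of 12 gene lists, with called members in red (higher in *vph1∆*) and blue (lower), uncalled members in grey and the median of the list as a black bar. The phosphate regulon has its median at -1.05, the respiratory and histone lists lie between -0.20 and -0.25, and the siderophore list has a median of 0.73 with no member called.

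The machinery that the deletions touch differed little outside the deleted genes. None of the 8 genes of the peripheral (V1) sector of the V-ATPase was called (median 0.02), none of 8 assembly factors was, and in the V0 sector *VPH1* was the only call of 8. *STV1* was at 17.9, 23.0, 22.6 and 19.7 TPM in *vph1∆* and 18.8, 18.9, 21.4 and 20.6 TPM in *atg18∆* (0.05 ± 0.09, adjusted p = 0.853). In the list for PtdIns(3,5)P2 and its binding proteins *ATG18* was the only call of 10, with the lipid kinase gene *FAB1* at -0.11, its activator *VAC7* at 0.08, the scaffold *VAC14* at -0.06 and the phosphatase *FIG4* at 0.03. Of 32 autophagy genes *ATG41*, which acts in autophagosome formation, was called, at 43.8, 49.97, 56.7 and 57.2 TPM in *vph1∆*, against 32.6, 32.1, 32.7 and 34 TPM in *atg18∆* (0.64 ± 0.08, adjusted p = 0.00275). *APE1*, a vacuolar aminopeptidase delivered by the autophagy machinery, was at 16.1, 18.8, 18.6 and 17.0 TPM in *vph1∆*, against 13, 12.3, 10.7 and 11.3 TPM in *atg18∆* (0.54 ± 0.08, adjusted p = 0.00465). *RTC2*, a transporter of the vacuolar membrane, was higher by 0.72, at no more than 3.08 TPM in any of the 8 libraries.

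Growth-related genes were near the median of all genes. Of 137 cytosolic ribosomal protein genes 2 were higher and 1 was lower (median -0.01), of 48 ribosome biogenesis genes none was called (median -0.04), and none of 19 genes of TORC1 and its vacuolar regulators was called (median 0.02). The general stress response had 3 members higher and 2 lower of 35, beside 4.83% higher and 1.61% lower over all genes. Its median was -0.15, with 22 members negative. *DDR48* at 0.76 was the highest and *HXK1*, hexokinase isoenzyme 1, at -0.44 the lowest of the called ones. *HXK1* stayed called in 2 of the 8 fits with a library left out (highest adjusted p = 0.116). With wild-type replicate 3 left out, *HXK1* differed from wild type by -0.04 in *vph1∆* and 0.40 in *atg18∆*. Of 23 genes for the Rim101 pathway and for sodium and proton pumps, *RIM8* (0.35) and *NRG2* (0.25) were higher, beside 4.83% of all genes. Both passed narrowly (limma adjusted p = 0.0490 each), and the list median was 0.02. With 1 library left out, 0 to 1 members of this list were called higher. *MF(ALPHA)1*, an alpha-factor gene, fell by 0.62, at no more than 1.48 TPM in *vph1∆* and 3.01 TPM in *atg18∆*. *BNA4* and *BNA5*, which encode enzymes of NAD synthesis from tryptophan and were chosen after their values were seen, were lower, with differences of -0.53 (adjusted p = 0.00576) and -0.57 (adjusted p = 0.00164), as was the nicotinamide riboside transporter gene *NRT1* at -0.51 (adjusted p = 0.00933).

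Ribosomal RNA rows differed between the strains, and the share of genes called varied with gene length. The 6 ribosomal RNA rows held 0.669, 0.362, 0.341 and 0.383% of the TPM in *vph1∆*, against 0.137, 0.119, 0.215 and 0.194% in *atg18∆*. *RDN25-1*, a copy of the 25S gene in the repeated array, was at 1483, 882, 1231 and 1284 TPM in *vph1∆*, against 392, 368, 574 and 554 TPM in *atg18∆* (1.37 ± 0.18, adjusted p = 0.00300), and copies in the array cannot be told apart. Protein-coding genes were grouped by the span of the gene in the genome, which includes introns. Those in the shortest group (51 to 892 bases) were called higher in 6.90% and lower in 2.04% of 1912. Those in the middle group (894 to 1638 bases) were called so in 5.96% and 1.88% of 1914, and those in the longest group (1641 to 14733 bases) in 1.2% and 0.995% of 1910. Removing the rows of non-coding RNA left 401 genes called, 384 of them among the 411. The part of length or of ribosomal RNA in the other differences was not tested.

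Of the 411 called genes all had the same sign in both replicate pairs (1 with 2, 3 with 4), and in 409 (99.5%) the strains did not overlap within either pair. Over all genes the sign was the same in 59.2% and neither pair overlapped in 23.0%. These calls rest on the same libraries, so the count describes them and is no independent check. *PHO84* differed by -2.67 in replicates 1 and 2 and by -3.38 in replicates 3 and 4, *ARG1* by 1.62 and 1.69, and *VTC3* by -1.42 and -1.32. The direction was the same in both pairs for each of these genes. For the histones no member was called from replicates 1 and 2 alone, against 6 from replicates 3 and 4 alone, and ATP synthase had 1 and 11 lower members in these fits.

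In other genes the strain difference itself depended on the replicates. Testing with limma whether the difference in replicates 3 and 4 departs from that in replicates 1 and 2 called 44 genes (0.69%), with 529 at an unadjusted p under 0.05. The count was 25, 23 or 24 without *atg18∆* replicate 2, 3 or 4, and 120, 84 or 23 without *vph1∆* replicate 1, 2 or 4. Iron genes made up the clearest group, and the genes named in this comparison were chosen after their values were seen. Under iron shortage the activator Aft1 induces siderophore transporters, cell wall proteins that hold siderophores and the reductive uptake system. *FIT2*, a cell wall mannoprotein gene of that group, was at 159 and 159 TPM in *vph1∆* replicates 1 and 2 and 20.2 and 20.3 TPM in its replicates 3 and 4, against 13.3, 13, 20.7 and 20.5 TPM in *atg18∆* replicates 1 to 4. *TIS11*, which encodes an RNA-binding protein that lowers iron-using mRNAs, was at 23.8, 24.5, 3.65 and 3.91 TPM in *vph1∆*, against 2.45, 2.68, 2.24 and 2.12 TPM in *atg18∆*. Both were high only in replicates 1 and 2 of *vph1∆*.

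The siderophore list had 6 such genes of 10 and no member called over all 8 libraries, with a median of 1.53 in replicates 1 and 2 and 0.04 in replicates 3 and 4. In reductive uptake *FTR1* and *FET3* changed direction. *FTR1*, the iron permease, was at 260, 284, 104 and 104 TPM in *vph1∆* and 150, 133, 174 and 186 TPM in *atg18∆*, a difference of 0.94 in replicates 1 and 2 and -0.79 in replicates 3 and 4. *FET3*, its multicopper oxidase partner, was at 186, 207, 77.7 and 72.7 TPM in *vph1∆* and 108, 98.1, 124 and 131 TPM in *atg18∆*. Over all 8 libraries the low-expressed *LSO1* (1.04) and the mitochondrial iron transporter gene *MRS4* (0.26) were the called genes of the 3 iron lists. These were 2 of 34 genes, near the 4.83% of all genes called higher.

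The Aft1 core GCACCC, sought on both strands, was found in 16 of 34 measured iron genes (47.1%), against 252 of 5972 promoters (4.22%). The windows are shown for 3 genes whose difference departed between replicate pairs, with the core or its reverse complement GGGTGC in capitals. They come from *FIT2* on chromosome XV, plus strand (1059388 to 1059417), *TIS11* on chromosome XII, minus strand (416814 to 416843), and *SIT1*, a siderophore transporter gene, on chromosome V, plus strand (27457 to 27486).
FIT2: acgaatctaactGGGTGCagtataattagc
TIS11: gcacatgcagttGGGTGCattgtgccagca
SIT1: gaacacatttgaGGGTGCaatctggttcgt
The letters match the core only, and no binding was measured.

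A second group of genes was high in *atg18∆* replicates 3 and 4 alone. *HSP26*, a small heat shock protein, was at 5.99, 5.42, 5.79 and 6.19 TPM in *vph1∆*, against 6.62, 5.91, 108 and 106 TPM in *atg18∆*. *HSP30*, a plasma membrane heat shock protein, was at 3.93, 4.36, 4.71 and 4.00 TPM in *vph1∆*, against 3.77, 4.10, 33.8 and 32.7 TPM in *atg18∆*. *DDR2*, a stress-induced gene, was at 77.2, 74.1, 102 and 90.8 TPM in *vph1∆* and 67.7, 74.4, 200 and 200 TPM in *atg18∆*. In these genes replicates 3 and 4 of *atg18∆* lay above the other 6 libraries. *ZRT1*, the high-affinity zinc transporter, differed by -1.17 in replicates 1 and 2, at 26.6 and 32.7 TPM in *vph1∆* and 66.7 and 68.8 TPM in *atg18∆*, and differed by 0.09 in replicates 3 and 4. *IZH4*, *ZRT2*, *INO1* and *LYS9* kept their direction in both pairs while the size changed, as in *INO1* with 0.86 and 1.66.

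**Figure D5:**
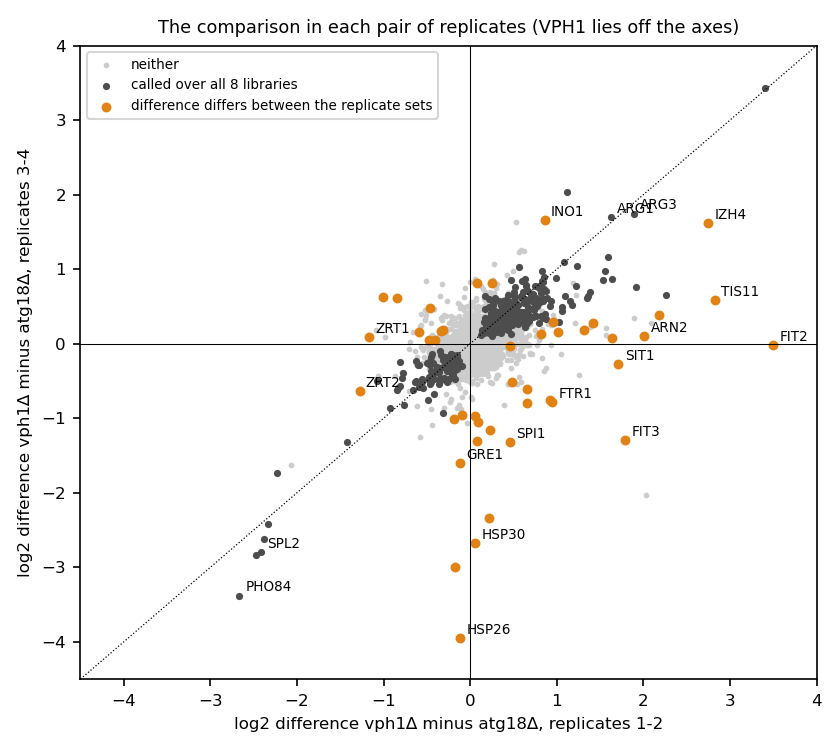
Log2 difference, *vph1∆* minus *atg18∆*, from replicates 1 and 2 on the horizontal axis and from replicates 3 and 4 on the vertical axis for each gene tested, with *VPH1* off the axes and a dotted line where both are equal. Dark points are called over all 8 libraries and orange points are the 44 genes whose difference departs between the pairs, with *FIT2* at 3.50 and -0.02 and *HSP26* at -0.12 and -3.95.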

How the data were processed

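RNA from 16 cultures was sequenced with a directional NEBNext kit. The authors deposited TPM values (read numbers per transcript length, rescaled to a fixed sum) from Salmon against SacCer3. The submitters' processing notes give Salmon 0.8.1, and the methods a later version. The labels give polyA RNA, whereas the protocol describes no polyA selection. Of 6844 rows, 6011 IDs matched RefSeq R64. TPM holds no read numbers, so the depth is unknown and the authors' test, which needs them, could not be run.

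Here log2(TPM + 1) of 6380 genes averaging 1 TPM or more in the 8 libraries was fitted with limma 3.58.1 in R 4.3.3, with a mean per strain, a variance trend, and two-sided moderated tests adjusted by the Benjamini-Hochberg method at 0.05. Exact permutation tests used scipy 1.17.1 in Python 3.11.15. The fit was checked on simulated data whose libraries were independent, so the check does not cover the likeness within replicate pairs.

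The strains, the 61 gene lists and the named genes were chosen with earlier results of these data known. Named were the deleted genes and their neighbours, *ARG1*, *ARG3* and *ARG4*, the 12 highest and 12 lowest called differences without overlap and with a mean of at least 10 TPM in the higher strain, and up to 6 called members per list. Uncalled members and genes outside this rule were added after their values were seen. Lists have counts and medians, with no test.

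Alternatives were pseudocounts of 0.1 and 5, no filter, a filter at a mean of 10 TPM, median scaling, quantile normalization, all 16 libraries in 1 model, no trend, array weights, a replicate block, a term for replicate pairs, each pair alone and each library left out. After seeing the data, removal of non-coding rows, averaging of replicate pairs and a 15-library model without wild-type replicate 3 were added.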

Additional observations from a re-analysis of the deposited data

Results flagged for a closer look

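In 6 of 234 groups of 4 libraries examined, 1 library lay far from the other 3, and chance gives about 1 in 20. These were *VPH1* in *vph1∆* (0.191 TPM in replicate 1), *ATG18* in *atg18∆* (0.0106 TPM in replicate 1), *PUT4* in *vph1∆* (1.62 TPM in replicate 3), *HTB1* in *vph1∆* (1024 TPM in replicate 4), *HTA2* in *vph1∆* (1175 TPM in replicate 1) and *HSP150* in *vph1∆* (995 TPM in replicate 2).

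The difference between *vph1∆* and *atg18∆* departed between replicates 3 and 4 and replicates 1 and 2 in 44 genes by limma's test of the interaction. As the log2 difference in replicates 3 and 4 minus that in replicates 1 and 2, the iron genes gave -3.52 for *FIT2*, -3.09 for *FIT3*, -1.99 for *SIT1*, -1.56 for *ARN1*, -1.91 for *ARN2*, -1.14 for *ENB1*, -1.73 for *FTR1*, -1.68 for *FET3*, -1.45 for *FRE1*, -2.24 for *TIS11* and -0.86 for *HMX1*. The stress genes gave -3.84 for *HSP26*, -1.77 for *SPI1*, -1.14 for *DDR2*, -1.49 for *GRE1*, -1.38 for *TMA10* and -2.74 for *HSP30*. Zinc and membrane genes gave 1.26 for *ZRT1*, 0.64 for *ZRT2*, -1.13 for *IZH4* and 0.80 for *INO1*, and amino acid genes 0.57 for *LYS9* and 0.73 for *HIS4*.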

How the results depend on the processing

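Over the settings tried, no called gene turned its sign, which the design of the settings largely fixed in advance. *PAC1*, not called, was at -0.0042 in replicates 3-4 only. The 411 calls (308 higher, 103 lower in *vph1∆*) were 401 to 407 with another pseudocount or without non-coding rows, and 397 without a filter. All 16 libraries in 1 model, with wild-type replicate 3 included, gave 43 (34 higher, 9 lower), and 15 libraries without it gave 769 (565 higher, 204 lower). Averaging each replicate pair gave 4 (3 higher, 1 lower). A term for replicates 1-2 against 3-4 gave 745 (528 higher, 217 lower). Replicates 1-2 only gave 276, with 203 higher, and replicates 3-4 only gave 626, with 266 lower. Lower calls were 187 after median scaling and 202 after quantile normalization, and the genes whose difference departed between replicate pairs numbered 72 after median scaling. The cause of these shifts was not tested. Replicate numbers do not pair the samples by any label. As a replicate block they gave 653 calls (463 higher, 190 lower), and the deviations of 5 of the 8 libraries correlated best with their own number in the other strain. The exceptions were *vph1∆* replicate 2 and *atg18∆* replicate 2 (0.0445 with each other) and *atg18∆* replicate 4 (0.1224 with its own number). Leaving out each library gave 205 to 327 calls, 153 to 256 higher and 48 to 78 lower, and 23 to 120 genes departing between pairs. Of 95 called genes examined this way, 54 were called in all 8 fits.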

Other observations

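Some of the smallest p-values belonged to genes in none of the lists, and these were chosen after their values were seen. *SPO24* (YPR036W-A), a short gene named for its part in sporulation, was at 1416, 1655, 1629 and 1465 TPM in *vph1∆*, against 862, 881, 928 and 901 TPM in *atg18∆* (0.78 ± 0.05, limma adjusted p = 0.000146). Its level was high in every library and the strains did not overlap. *PIC2*, a mitochondrial carrier of phosphate and copper, was at 38.4, 38.5, 41.2 and 38.3 TPM in *vph1∆*, against 27.1, 26.5, 25.4 and 24.9 TPM in *atg18∆* (0.57 ± 0.05, limma adjusted p = 0.000608). *UBC5*, a ubiquitin-conjugating enzyme, rose by 0.53 (limma adjusted p = 0.000776).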
